A study of Caenorhabditis elegans with 18 samples.

Results

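Loss of dpf-3 was studied in Caenorhabditis elegans that already lack alg-2. The comparison sets dpf-3(xe68);alg-2(ok304) animals, called double mutants or dpf-3;alg-2 here, against alg-2(ok304) single mutants, with 3 libraries each, 6 of the 18 small RNA libraries of the series. The members were chosen by their titles, and both genotypes carry the alg-2(ok304) allele, so alg-2 loss is shared and dpf-3(xe68) is the difference. All animals were young adults grown at 25 °C on OP50 bacteria, and whole worms were pelleted, so a change in a miRNA and a change in the share of the cells that make it cannot be told apart. Each allele is the only one of its gene in the series. The other genotypes used here for reference are dpf-3(xe68) with wild type (N2), and dpf-3(xe68);alg-1(gk214) with alg-1(gk214), also with 3 libraries each. MiRNA libraries hold no messenger RNA, so the genotypes could not be checked on the transcripts of the mutated genes.

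MiRNAs are short RNAs cut from hairpins and loaded into an Argonaute protein, which they guide to matching messenger RNAs. In C. elegans the products of alg-1 and alg-2 are the Argonautes that hold most miRNAs, and an Argonaute that holds a miRNA also protects it from decay. dpf-3 encodes a dipeptidyl peptidase, an enzyme that trims pairs of amino acids from protein N-termini, and it is known for acting on Argonautes of the germline. In alg-2 mutants alg-1 is the main miRNA Argonaute that is left, and the comparison asks how the miRNA profile differs when dpf-3 is lost as well.

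Totals were 14480121, 7784638 and 13958145 counts in dpf-3;alg-2 libraries, against 18150643, 10444789 and 15259172 counts in alg-2 libraries. Between 147 and 153 miRNAs had a count in these libraries. Levels are given as CPM, counts scaled to a library of 1000000 counts. Of 175 miRNAs, 139 passed the filter on low counts over all 18 libraries and were tested. The other 36 included 17 with no count in these 6 libraries, and none of them had more than 34 counts in the 6 together. Pairs of libraries from one genotype correlated at 0.996 to 0.999 across the tested miRNAs on the log2 scale (6 pairs), and pairs of libraries from different genotypes at 0.994 to 0.996 (9 pairs).

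When dpf-3 was lost on top of alg-2, a minority of miRNAs changed, mostly by less than 2-fold. Among the risers were mir-62 and mir-1018, which splicing releases from introns, the intestinal miRNA mir-786 and the ageing-linked mir-246, and among the fallers mir-78, mir-790 and mir-34. Against alg-2, 18 miRNAs rose and 8 fell in dpf-3;alg-2 by edgeR's quasi-likelihood test at a Benjamini-Hochberg adjusted p below 0.05, which is 18.7% of the 139 tested, 12.9% higher and 5.76% lower. Of these 26 miRNAs, 8 moved by at least 2-fold (5.76% of those tested) and 17 by at least 1.5-fold (12.2%). The risers together took 1.43% ± 0.0661 of the counts in dpf-3;alg-2, against 0.976% ± 0.0636 in alg-2 (SD, n = 3 each). The fallers took 2.92% ± 0.180 in dpf-3;alg-2 and 3.64% ± 0.128 in alg-2. For each of the 26, every library of one genotype lay above every library of the other, and over all tested miRNAs 34.5% were separated in this way. The median change of all tested miRNAs was -0.0054 on the log2 scale, and their root mean square change was 0.44. With RLE scaling the split was 16 higher and 14 lower. The count of fallers was 5 on leaving out the first or the third alg-2 library or the second dpf-3;alg-2 library.

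**Figure D1:**
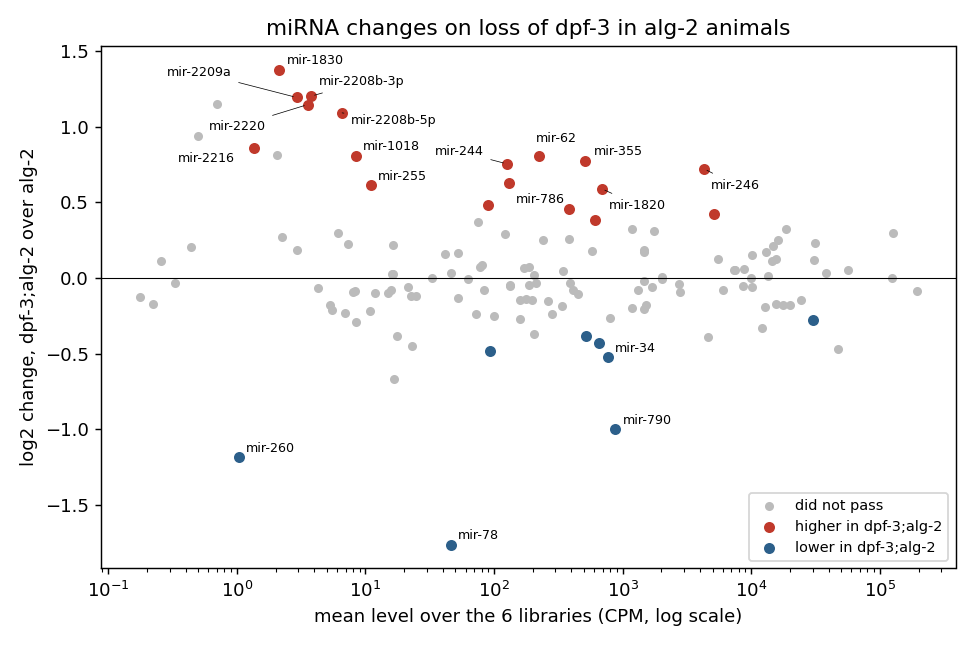
Log2 change in dpf-3;alg-2 over alg-2 (vertical) against the mean level in CPM (horizontal, log scale) for the 139 tested miRNAs, 1 point each. The 18 red points passed the test as higher and the 8 blue points as lower, and 8 of these 26 have mean levels below 10 CPM.

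Changed miRNAs were found at low, middle and high levels, and the most abundant miRNAs mostly did not pass. Of 27 tested miRNAs with a mean below 10 CPM over the 6 libraries 7 rose and 1 fell, of 64 between 10 and 1000 CPM 9 rose and 6 fell, and of 48 above that 2 rose (mir-246 and mir-59) and 1 fell (mir-52). The 10 most abundant miRNAs held 69.2% ± 0.726 of the counts in double mutants and 69.5% ± 1.17 in alg-2 (SD, n = 3 each). Of these 10, mir-52 fell, and the other 9 did not pass. The muscle miRNA mir-1 led both profiles, with 18.5% ± 1.17 in double mutants and 19.8% ± 1.56 in alg-2. mir-44/45 came next, with 13.7% ± 1.40 in double mutants and 11.2% ± 1.19 in alg-2, a log2 change of 0.30 (SE 0.12, edgeR adjusted p = 0.101). mir-58, a member of the bantam-like family, was at 12.2% ± 1.003 in double mutants and 12.3% ± 0.858 in alg-2.

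Among the risers with a mean of at least 10 CPM, the mirtron mir-62 had the lowest adjusted p. A mirtron is a hairpin released by splicing in place of the first cut by Drosha. mir-62 was at 312, 259.6 and 284 CPM in double mutants, against 152, 163 and 174 CPM in alg-2. All libraries of double mutants lay above all of alg-2, and the log2 change was 0.81 (SE 0.11, edgeR adjusted p = 0.000239), a 1.75-fold rise. In the WBcel235 annotation the mir-62 hairpin fills an intron of ugt-50 exactly, on the same strand.

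Hairpins that fill an annotated intron exactly were looked for among all tested miRNAs after the values had been seen, and 4 had this layout, namely mir-62, mir-1018, mir-2220 and mir-1020. The first 3 of them rose, where 12.9% of all tested miRNAs rose, and mir-1020 did not pass. mir-1018 and mir-2220 both lie in introns of one noncoding RNA gene, Y59E1B.1. mir-2220 had 60, 39 and 74 counts in double mutants, against 34, 27 and 33 counts in alg-2, and its level was 4.89 ± 0.664 CPM in double mutants and 2.22 ± 0.348 CPM in alg-2 (SD, n = 3 each). The libraries of double mutants were all higher, and the log2 change was 1.15 (SE 0.18, edgeR adjusted p = 0.00039). mir-1018 had 132, 71 and 191 counts in double mutants, against 120, 56 and 96 counts in alg-2, a log2 change of 0.81 (SE 0.19, edgeR adjusted p = 0.00498) that was 0.58 and did not pass without dpf-3;alg-2 replicate 3. mir-1020, in an intron of T16G12.1, was at 72.0, 55.5 and 72.8 CPM in double mutants, against 73.6, 91.4 and 71.9 CPM in alg-2, and the groups overlapped. Of the 4 mirtrons on the list used here, mir-1019 had 1 count in the 6 libraries and was not tested.

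The largest called fall was that of mir-78. It was at 23.4, 23.4 and 16.3 CPM in double mutants, against 99.6, 58.6 and 55.3 CPM in alg-2. alg-2 replicate 1 stood above the other alg-2 libraries, and every alg-2 library was above every double-mutant library. The log2 change was -1.76 (SE 0.29, edgeR adjusted p = 0.000555), and -1.44 without alg-2 replicate 1. mir-790, listed here among neuron markers, was at 710.3, 395 and 651 CPM in double mutants, against 1298, 1056 and 1165 CPM in alg-2, a log2 change of -1.002 (SE 0.21, edgeR adjusted p = 0.0030). Within double mutants, replicate 2 was the lowest, and without it the change was -0.79 and still passed. mir-34, linked to stress responses and ageing in worms, was at 577, 709 and 609.7 CPM in double mutants, against 794, 1106 and 829.8 CPM in alg-2. Its fall was smaller, a log2 change of -0.53 (SE 0.12, edgeR adjusted p = 0.0030), with no overlap.

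Several miRNAs of middle or high level rose by less than 2-fold. mir-246, linked to ageing in worms, was at 5081, 6103 and 4787 CPM in double mutants, against 2855, 3592 and 3220.4 CPM in alg-2. Its log2 change was 0.72 (SE 0.16, edgeR adjusted p = 0.0030). mir-355 was at 711, 644 and 564 CPM in double mutants, against 313, 410.05 and 398 CPM in alg-2, a log2 change of 0.78 (SE 0.14). Both separated the genotypes without overlap. mir-1820 was at 794, 911 and 767 CPM in double mutants, against 543, 535 and 562 CPM in alg-2, a log2 change of 0.59 (SE 0.10). mir-786, a miRNA that times the defecation rhythm in the intestine, was at 159, 156 and 159.9 CPM in double mutants, against 93.8, 112 and 101 CPM in alg-2, a log2 change of 0.63 (SE 0.14). For mir-1820 and mir-786 the lowest double-mutant library was above the highest alg-2 library. mir-244 was at 156, 174 and 145 CPM in double mutants, against 110.4, 61.4 and 109 CPM in alg-2, a log2 change of 0.76 (SE 0.18). alg-2 replicate 2 was low, and with replicates 1 and 3 alone the change of mir-244 was 0.46 and did not pass (edgeR adjusted p = 0.0602, the highest of 0.00307 to 0.0602 over its alternatives). mir-255, at 13.3 ± 0.913 CPM in double mutants and 8.72 ± 0.642 CPM in alg-2 (SD, n = 3 each), rose by 0.61 (SE 0.14).

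**Figure D2:**
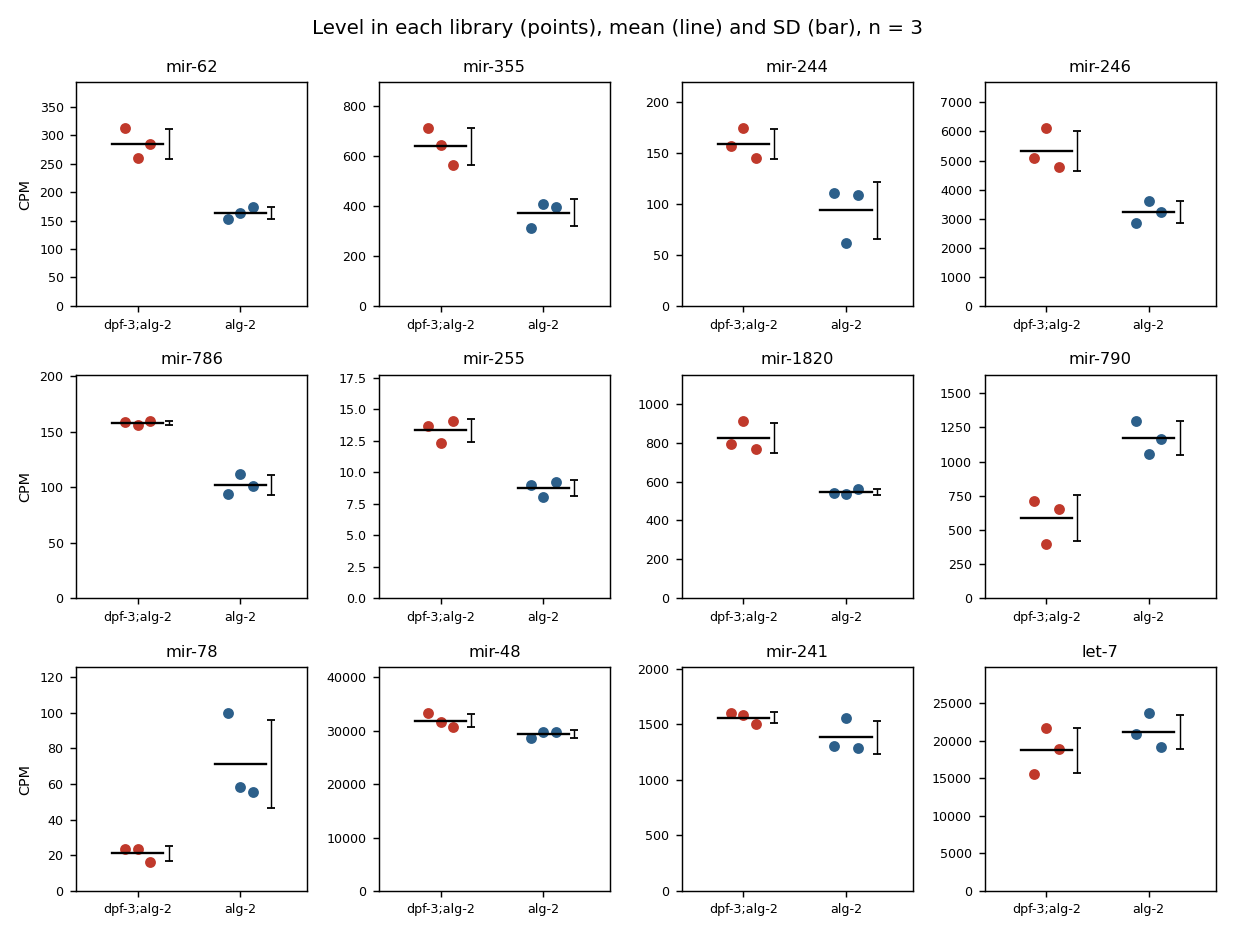
Level in CPM of the 9 called miRNAs with a change of at least 1.5-fold and a mean of at least 10 CPM, and of mir-48, mir-241 and let-7, in each library of dpf-3;alg-2 (red) and alg-2 (blue), with the mean as a line and the SD as a bar (n = 3). The genotypes do not overlap in the first 9 panels or for mir-48, and they overlap for mir-241 and let-7.

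Further rises were seen at low counts. The hairpins mir-2208a, mir-2208b, mir-2209a and mir-2209c lie within 10 kb of one another on one strand. The 5p arm of mir-2208b had 135, 66 and 121 counts in double mutants, against 68, 46 and 67 counts in alg-2, a log2 change of 1.09 (SE 0.18, edgeR adjusted p = 0.00039). Its 3p arm, cut from the same hairpin and so not independent, had 77, 43 and 67 counts in double mutants, against 38, 22 and 39 counts in alg-2, and changed by 1.20 (SE 0.22). The 5p to 3p ratio stayed within overlapping ranges, 1.53 to 1.81 in double mutants and 1.72 to 2.09 in alg-2. mir-2209a had 70, 33 and 42 counts in double mutants, against 31, 17 and 29 counts in alg-2, a log2 change of 1.20 (SE 0.27, edgeR adjusted p = 0.00365). mir-2208a had at most 21 counts in a library and did not pass (1.15, SE 0.57), and mir-2209c had at most 8 counts. Letters after a shared number mark near-identical miRNAs, and how the reads were shared among them is not stated, so the split between copies is uncertain.

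Another pair of low-count risers lies inside introns of protein-coding genes on the same strand. mir-1830, in an intron of paic-1, had 38, 26 and 46 counts in double mutants, against 25, 9 and 18 counts in alg-2, a log2 change of 1.38 (SE 0.39, edgeR adjusted p = 0.0185). The call was lost on leaving out the second or the third alg-2 library, or the third library of double mutants, with log2 changes of 1.25, 1.37 and 1.32. mir-2216, in an intron of gmps-1, had 31, 8 and 27 counts in double mutants, against 18, 10 and 15 counts in alg-2, a log2 change of 0.86 (SE 0.29) that passed narrowly (edgeR adjusted p = 0.045). Its call was lost in 12 of 16 alternatives, among them leaving out any 1 library but the second of double mutants, with log2 changes of 0.69 to 0.89. In all, 5 of the 26 called miRNAs lie inside a protein-coding or noncoding gene on the same strand, of 32 among the 139 tested.

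The remaining called miRNAs moved by less than 1.5-fold or at very low counts. mir-59 was at 6255, 5653 and 5705 CPM in double mutants, against 4357, 3960 and 4832 CPM in alg-2, a log2 change of 0.42 (SE 0.09). mir-357 was at 105, 113 and 95.1 CPM in double mutants, against 76.9, 73.2 and 73.7 CPM in alg-2, a log2 change of 0.48 (SE 0.10). mir-79 averaged 442 ± 41.9 CPM in double mutants and 322 ± 44.7 CPM in alg-2 (SD, n = 3 each), a log2 change of 0.45. For these 3 risers the lowest double-mutant library stood above the highest alg-2 library. mir-227 was at 697 ± 63.9 CPM in double mutants and 533 ± 96.4 CPM in alg-2, a log2 change of 0.39. mir-234, the faller nearest the threshold, was at 560 ± 53.9 CPM in double mutants and 755 ± 59.2 CPM in alg-2 (-0.43, edgeR adjusted p = 0.0411). mir-245 was at 454 ± 30.1 CPM in double mutants and 591 ± 44.5 CPM in alg-2 (-0.38). For mir-227, mir-234 and mir-245 the genotypes did not overlap either. mir-52, the most abundant of the called miRNAs, was at 25667, 27118 and 29039 CPM in double mutants, against 33903, 31511 and 33896 CPM in alg-2, a log2 change of -0.28 (SE 0.09, edgeR adjusted p = 0.0361). mir-260 had 10, 4 and 9 counts in double mutants, against 23, 11 and 30 counts in alg-2, a log2 change of -1.19 (SE 0.33). Single libraries decided several of these calls. mir-79 did not pass without alg-2 replicate 1 or 2 or double-mutant replicate 1 or 3, with log2 changes of 0.35 to 0.49, and mir-227 did not pass without alg-2 replicate 2 or double-mutant replicate 1 or 3, with 0.24 to 0.36. mir-234 passed on leaving out alg-2 replicate 3 and on no other omission of 1 library (-0.49 to -0.36). mir-245 and mir-52 did not pass without alg-2 replicate 1 or 3 or double-mutant replicate 1 or 2, with -0.39 to -0.33 for mir-245 and -0.28 to -0.24 for mir-52. mir-260 did not pass without replicate 3 of alg-2 (-0.90) or of double mutants (-1.20).

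By family, most lists had no called member. The let-7 family, which shares the seed of let-7 and drives the larval-to-adult switch, had 1 faller among 8 tested, mir-794, at 77.7, 70.1 and 82.9 CPM in double mutants against 103, 118 and 102 CPM in alg-2, a log2 change of -0.48 (SE 0.11). The median change of the family was 0.03, beside -0.0054 over all tested miRNAs. mir-48 was at 33251, 31680.0 and 30779 CPM in double mutants, against 28614, 29824 and 29727 CPM in alg-2, and every double-mutant library was higher by a small margin. Its log2 change of 0.12 had a 95% interval of -0.06 to 0.29 and did not pass (edgeR adjusted p = 0.379). For mir-241 the interval was -0.12 to 0.47 around 0.17, and for let-7 it was -0.41 to 0.05 around -0.18. Neither passed, and the libraries of let-7 overlapped. Of the 6 developmental timing miRNAs none passed, and they lay between -0.18 and 0.17.

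The mir-35 family, made in oocytes and embryos and needed for embryonic development, had no called member among 8, with a median change of 0.02 and a range of -0.67 to 0.81. Its summed level ran over 4427 to 4856 CPM in double mutants and over 3982 to 4976 CPM in alg-2, and the groups overlapped. mir-35 itself was at 1833, 2211 and 1804 CPM in double mutants, against 1445, 1848 and 1412 CPM in alg-2, with a 95% interval of -0.24 to 0.87 for its log2 change of 0.31. In the mir-51 family mir-52 fell and the other 5 did not pass, although all 6 had changes below 0, from -0.33 to -0.06. With a median of -0.0054 over all tested miRNAs, a change below 0 was common. The summed level was 70366 to 73098 CPM in double mutants and 79962 to 87366 CPM in alg-2, without overlap. The called mir-52 is part of this sum, at a mean of 27275 CPM in double mutants and 33103 CPM in alg-2. Summed levels of the neuron, mirtron, mir-232 and mir-251 lists did not overlap between genotypes either, and those of the other lists did. Of single tested miRNAs 34.5% were separated. The called mir-790, mir-62 and mir-357 make up most of the neuron, mirtron and mir-232 sums and enter them. In double mutants mir-62 averaged 285 CPM of a mirtron sum of 325 to 393 CPM, and mir-357 104 CPM of a mir-232 sum of 113 to 128 CPM. In the mir-58 family the low-level mir-2209a was the 1 riser among 5 tested. mir-80 was at 39057, 44263 and 35285 CPM in double mutants, against 53786, 61801 and 48653 CPM in alg-2 (-0.47, SE 0.17, edgeR adjusted p = 0.0652). mir-81 was at 18903, 22546 and 20471 CPM in double mutants, against 16583, 16883 and 16004 CPM in alg-2 (0.32, SE 0.12, edgeR adjusted p = 0.0627). The genotypes did not overlap for either miRNA, with changes of opposite sign, and neither passed. In the mir-75, mir-232 and mir-240 families, each a pair, mir-79, mir-357 and mir-786 rose and the partner did not pass. The lin-4, mir-64, mir-44, mir-2, mir-72, mir-87, mir-46, mir-49, mir-251 and mir-238 families had no called member. Of the 6 miRNAs linked to ageing and stress mir-246 rose and mir-34 fell, and mir-71, at a log2 change of 0.04 (SE 0.22), did not pass.

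Markers of other tissues gave 1 call. Of 5 neuron markers mir-790 fell, and mir-791, which acts in carbon dioxide sensing, was at 19.5, 18.6 and 19.8 CPM in double mutants, against 27.6, 23.6 and 27.8 CPM in alg-2, a log2 change of -0.45 that did not pass (edgeR adjusted p = 0.0627). The summed level of the 5 was 759 to 1062 CPM in double mutants and 1439 to 1739 CPM in alg-2, most of it mir-790. lsy-6, which sets left-right differences of a taste neuron pair, and the neuronal mir-124 had log2 changes of -0.10 and -0.09 and did not pass. mir-793 was at 310, 320 and 324 CPM in double mutants, against 389, 341 and 354 CPM in alg-2. Its log2 change of -0.18 did not pass. All 5 changes were below 0, beside a median of -0.0054 over all tested miRNAs, so a change below 0 was common. The genotypes did not overlap for mir-790, mir-791 and mir-793, beside 34.5% of all tested miRNAs. The muscle marker mir-1 (-0.09, SE 0.10), the intestine markers mir-60 (0.01) and mir-243 (-0.11) and the glia marker mir-228 (0.05) did not pass. Whether neuron content played a part in the fall of mir-790 was not tested. Of the 113 miRNAs that did not pass, 74 had a 95% interval inside a 1.5-fold change and 104 inside a 2-fold change.

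**Figure D3:**
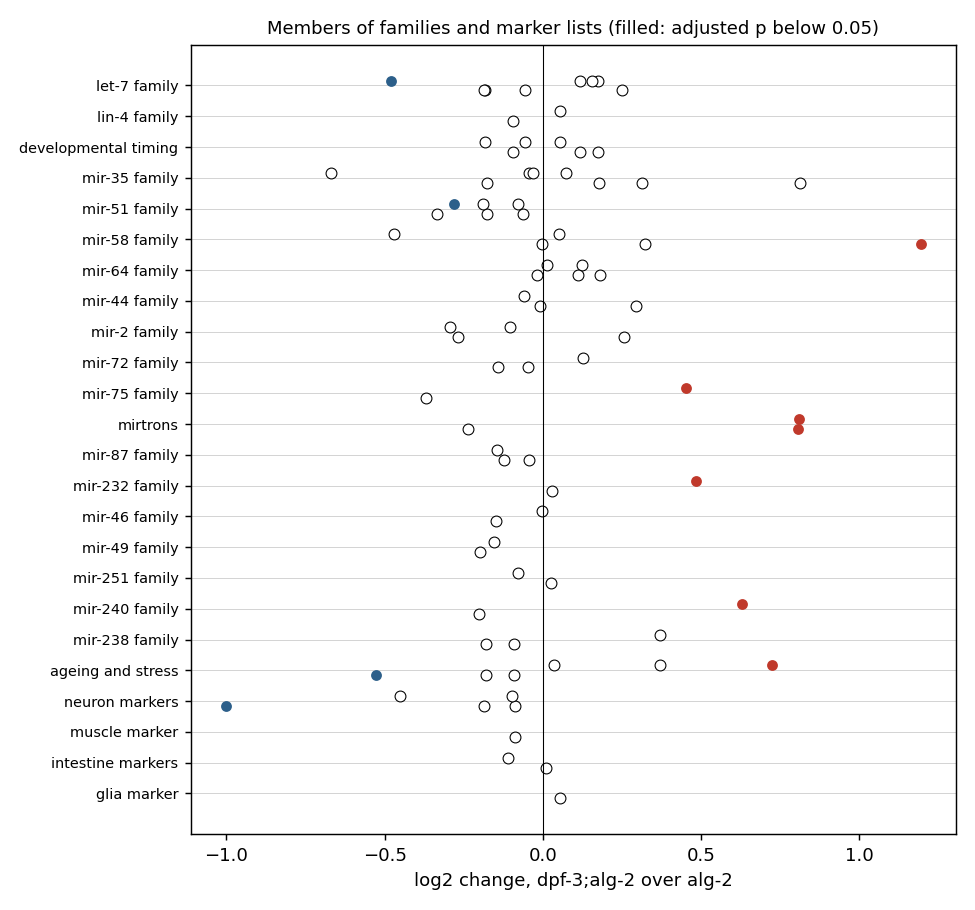
Log2 change in dpf-3;alg-2 over alg-2 for the tested members of each list, 1 point per miRNA, moved slightly up or down so that points do not cover each other. Filled points passed the test (red higher, blue lower), and open points did not; the neuron list has its 1 faller at -1.002 and the mirtron list its 2 risers at 0.81.

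Members of one genomic cluster did not always move together, and a ratio of counts within a library does not depend on scaling. mir-786 and its neighbour mir-240 stood at a ratio of 0.129, 0.121 and 0.0997 in double mutants, against 0.0579, 0.0780 and 0.0598 in alg-2, with no overlap. For mir-790 and its neighbour mir-228 the ratio was 0.0910, 0.0584 and 0.0775 in double mutants, against 0.155, 0.177 and 0.149 in alg-2. mir-357 and mir-358 were at 6.75 ± 0.633 in double mutants and 4.61 ± 0.605 in alg-2, and mir-794 and mir-795 at 0.294 ± 0.0327 in double mutants and 0.504 ± 0.0873 in alg-2 (SD, n = 3 each). In each of these 4 pairs 1 member passed and the other did not, and the ratios did not overlap between genotypes. Of all 59 annotated neighbouring pairs with counts in every library, the ratios of 13 (22%) did not overlap. Of the 8 pairs among them in which 1 member passed, these 4 did not overlap and the other 4 did. The other 4 were all among the low-count mir-2208 and mir-2209 hairpins. A called miRNA separated the genotypes by its own level, and that enters its ratio. mir-48 and mir-241, the neighbouring let-7 relatives, had overlapping ratios, 20.5 ± 0.401 in double mutants and 21.4 ± 2.01 in alg-2, as did mir-1018 and mir-2220. mir-79 and mir-75, which share a seed but not a locus, gave 2.55 ± 0.606 in double mutants and 1.41 ± 0.147 in alg-2. These pairs were chosen after the values were seen and no test was made on the ratios.

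**Figure D4:**
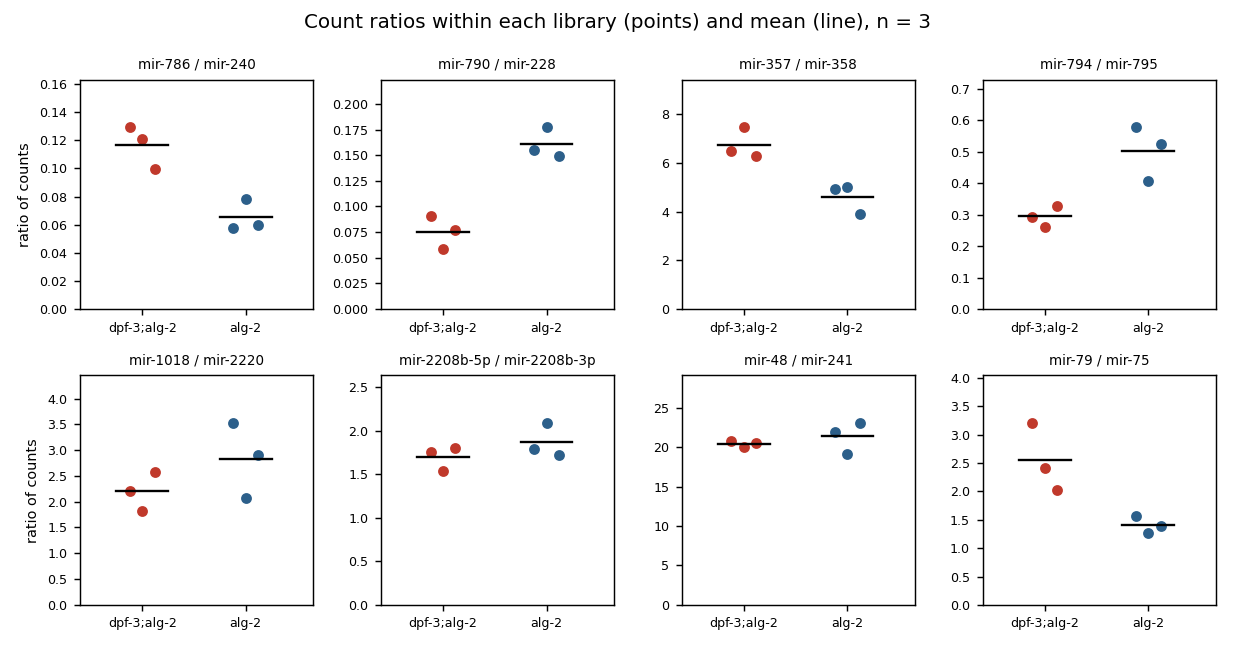
Ratio of the counts of 2 miRNAs within each library (vertical, no unit, from 0) for dpf-3;alg-2 (red) and alg-2 (blue), with the mean as a line (n = 3). The ratios do not overlap between genotypes for mir-786/mir-240, mir-790/mir-228, mir-357/mir-358, mir-794/mir-795 and mir-79/mir-75, and they overlap for the other 3 pairs.

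For part of the profile, the measured effect of dpf-3 loss differed between wild type animals and alg-2 animals. The libraries with alg-2(ok304) carry a library name in their labels and the others do not. Whether an effect differs by background or by library set thus cannot be told apart. Against wild type, dpf-3 changed 33.8% of the 139 tested miRNAs, and 9 of the 26 miRNAs called in alg-2 animals were among them (34.6% of the 26), each in the same direction as in alg-2 animals. These were mir-2208b-5p, mir-2208b-3p, mir-2209a, mir-357, mir-59, mir-244 and mir-227, which rose, and mir-34 and mir-260, which fell. With RLE scaling mir-59 (log2 change 0.22) and mir-227 (0.27) did not pass in dpf-3, and with upper quartile scaling mir-34 (-0.35) did not. The comparison in wild type animals shares no library with that in alg-2 animals. The difference between the effects was tested in the same edgeR fit. It passed for 39 miRNAs, 28.1% of those tested, with 23 more positive in alg-2 animals (16.5%) and 16 more negative (11.5%), or 10 and 33 with upper quartile scaling, where the median difference of all tested miRNAs was -0.22 in place of 0.04. Without wild type replicate 1 the split was 13 and 5. The count of more negative effects was 6 on leaving out alg-2 replicate 1, 10 on leaving out alg-2 replicate 3, and 9 on leaving out dpf-3;alg-2 replicate 2.

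Relatives of let-7 differed between these backgrounds. mir-48 was at 50958 ± 2743 CPM in dpf-3, against 20095 ± 1480 CPM in wild type (SD, n = 3 each), which is 1.34 on the log2 scale (SE 0.08). mir-241 was at 2908 ± 198 CPM in dpf-3, against 894 ± 113 CPM in wild type, a log2 change of 1.70 (SE 0.14). For mir-48 and mir-241 in turn, the effect in alg-2 animals was lower by 1.22 (SE 0.12, edgeR adjusted p = 1.11e-06) and by 1.53 (SE 0.20, edgeR adjusted p = 4.26e-05) on the log2 scale. In alg-2 animals without dpf-3 loss both were above wild type, mir-48 at 29388 ± 672 CPM against 20095 ± 1480 CPM and mir-241 at 1382 ± 150.04 CPM against 894 ± 113 CPM (SD, n = 3 each), though alg-2 and wild type belong to differently labelled library sets and the sets cannot be told apart from the genotypes. mir-35 fell in dpf-3 against wild type, with 9550.1 ± 2958 CPM in dpf-3 and 50948 ± 6079 CPM in wild type, and the effect in alg-2 animals was higher by 2.73 (SE 0.38, edgeR adjusted p = 9.23e-05). In alg-2 animals mir-35 was at 1568 ± 243 CPM, with the same limit on sets. Of the 26 miRNAs, 12 had an effect that differed from that in wild type animals, beside the 28.1% of all tested miRNAs, and the 26 were chosen by their change in alg-2 animals, which enters this difference. Among the 12 were mir-78 (-2.16, SE 0.41), mir-2220 (1.57, SE 0.25) and mir-246 (1.05, SE 0.22). mir-62 (0.64, SE 0.16) and mir-355 (0.73, SE 0.19) passed too, except with upper quartile scaling.

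In alg-1 animals loss of dpf-3 changed 76.3% of the tested miRNAs, and 19 of the 26 were among them, 10 in the same direction as in alg-2 animals and 9 in the opposite one. The alg-1 and dpf-3;alg-1 libraries have no library name label either, so here too background and library set cannot be told apart. The difference between the effects in alg-2 and alg-1 animals passed for 92 miRNAs, 66.2% of those tested, with 49 more positive in alg-2 animals (35.3%) and 43 more negative (30.9%), or 96 and 18 with upper quartile scaling, where the median difference was 1.34 in place of 0.17. Among the 26, whose change in alg-2 animals enters this difference, it passed for 18. The miRNAs that moved in opposite directions were mir-62, mir-2220, mir-1018, mir-1820, mir-244, mir-227 and mir-79, which fell in dpf-3;alg-1 against alg-1, and mir-78 and mir-794, which rose there. With upper quartile scaling the log2 change of mir-794 in dpf-3;alg-1 was -0.41 in place of 0.71, and the median of all tested miRNAs there was -1.27 in place of -0.14. With scaling by totals alone the log2 change of mir-1018 in dpf-3;alg-1 was -0.36 and did not pass. For each of these 9 the difference between the effects passed the edgeR test. It was -3.55 for mir-78 and 3.47 for mir-244 on the log2 scale. These 9 were picked by calls of opposite sign in alg-2 and alg-1 animals. A passing difference was thus nearly certain beforehand and adds no support. mir-244 was at 66.3 ± 8.32 CPM in dpf-3;alg-1, against 435 ± 44.7 CPM in alg-1, and mir-78 at 36.1 ± 3.15 CPM in dpf-3;alg-1, against 10.4 ± 2.85 CPM in alg-1 (SD, n = 3 each). mir-246 and mir-786 rose in both backgrounds and by more in alg-1 animals, where mir-246 was at 6343 ± 1394 CPM in dpf-3;alg-1 and 205 ± 8.80 CPM in alg-1, and mir-786 at 148 ± 6.70 CPM in dpf-3;alg-1 and 17.4 ± 2.13 CPM in alg-1. Their effects in alg-2 animals were lower by 4.23 and 2.46 on the log2 scale. Of the 139 tested miRNAs, 18.7% were called in alg-2 animals, 33.8% in wild type animals and 76.3% in alg-1 animals. In every background 7 were called, and whether this is more than those shares alone would give was not tested. Of these 7 miRNAs, 5 moved in one direction. mir-2208b-5p, mir-357 and mir-59 were higher on loss of dpf-3, and mir-34 and mir-260 lower. The 3p arm of the mir-2208b hairpin did not follow the 5p arm in alg-1 animals. Its log2 change there was -0.40 (SE 0.24) and did not pass, beside 0.58 for the 5p arm. With upper quartile scaling, with its shift of the median, mir-2208b-5p had a log2 change of -0.54 in dpf-3;alg-1 in place of 0.58 and mir-357 did not pass there. In dpf-3, mir-34 did not pass with upper quartile scaling and mir-59 did not pass with RLE scaling. mir-34 had log2 changes of -0.53 (SE 0.12) in alg-2 animals, -0.57 (SE 0.12) in alg-1 animals and -0.67 (SE 0.12) in wild type animals. This closeness depends on the scaling. With upper quartile scaling mir-34 was at -1.70 in alg-1 animals and -0.35 in wild type animals. With scaling by totals alone it was at -0.40 in alg-1 animals and -0.57 in wild type animals.

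**Figure D5:**
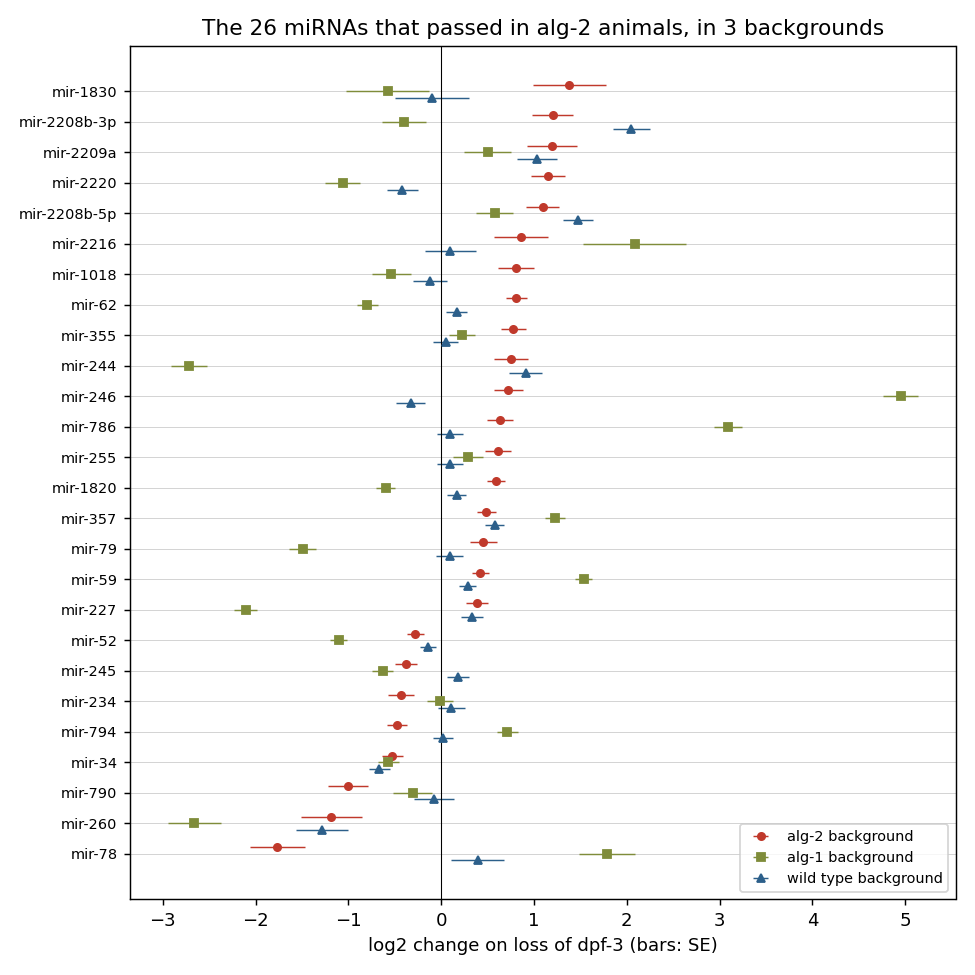
Log2 change on loss of dpf-3 (horizontal, with SE bars) in alg-2 (red circles), alg-1 (green squares) and wild type (blue triangles) animals for the 26 miRNAs that passed in alg-2 animals. With the TMM scaling drawn here, mir-34 lies between -0.67 and -0.53 in all 3, while mir-78 and mir-244 lie on opposite sides of 0 in alg-2 and alg-1 animals.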

How the data were processed

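Small RNA was sequenced from pellets of young adult worms, and gel size selection near 140 bp enriched for miRNAs, per the labels' protocols. The authors deposited expected counts per miRNA, not normalized, in 18 libraries of 6 genotypes. Bowtie 0.12.7 is named in the submitters' processing notes, while the build and the miRNA annotation used by the authors were not given in the sources used here. The deposited total per miRNA equals the sum of the other numeric columns (largest difference 2.0095e-14). In each library 75% to 86.9% of the values were whole numbers and the others were fractions. How reads that match several miRNAs were shared is not stated, so levels of near-identical miRNAs are uncertain.

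Expected counts were rounded to whole numbers, and mir-44 and mir-45, with identical values, were summed as mir-44/45. The test was that of edgeR 4.0.16, run in R 4.3.3 (TMM scaling, quasi-likelihood test, robust) after a low-count filter (edgeR's filterByExpr by genotype, with a count minimum of 10 and a total minimum of 15). All 18 libraries entered the fit with genotype as the term and 12 residual degrees of freedom. A miRNA was called at a Benjamini-Hochberg adjusted p below 0.05 over 139 tested miRNAs. Differences between backgrounds were contrasts in the same fit. Levels in CPM were computed from library totals multiplied by the TMM factors, so they are shares of the counted miRNAs and not absolute amounts. Library totals ranged from 7784638 to 22503629 counts, and intervals cover 95%.

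Named were every called miRNA, the members of the lists, the 10 most abundant miRNAs and annotated neighbours within 10 kb on the same strand. The annotation (WBcel235) matched 136 tested miRNAs by name and served for neighbours and host genes alone. The members and lists were chosen with earlier results of these data known. On simulated data with the real means and library sizes, the comparison of dpf-3;alg-2 with alg-2 recovered 66.5% of 1.5-fold, 90% of 2-fold and 98% of 4-fold changes (20 simulations, 139 miRNAs). Each simulated miRNA had the spread typical of its level and none of its own. Recovery may thus be lower for real miRNAs that vary more. Whether the 3 libraries of a genotype came from separate cultures is not stated, so the p-values reflect only how far these libraries differ, which may be technical. A library name is given in the labels of the 6 libraries carrying alg-2(ok304) and of no others. No pair of libraries of either genotype agreed within sampling noise.

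Alternatives were scaling by RLE, by upper quartile or by totals alone, a looser and a stricter filter, DESeq2 1.42.0, voom in limma 3.58.1, fits of the compared genotypes alone, replicate blocks, and leaving out each library. Libraries 1 and 3 alone, and the count ratios of neighbours, were added after the data were seen.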

Additional observations from a re-analysis of the deposited data

Results flagged for a closer look

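For 30 of the miRNAs named here, the 26 called ones with mir-48, mir-241, let-7 and mir-35, the effect of dpf-3 loss in alg-2 animals was set against the effect in each other background by a contrast of the differences in the edgeR fit. The difference passed for 15 against wild type animals, where it passed for 28.1% of all tested miRNAs, and for 21 against alg-1 animals, where it passed for 66.2%. The 26 were chosen by their change in alg-2 animals, which is part of each difference. All values that follow are differences of log2 changes, the effect in alg-2 animals minus the effect in the other background. In each of them the background cannot be told apart from the library set.

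Against wild type animals the effect was higher in alg-2 animals by 0.64 for mir-62, 1.57 for mir-2220, 0.43 for mir-1820, 0.73 for mir-355, 1.05 for mir-246, 0.54 for mir-786, 0.93 for mir-1018 and 2.73 for mir-35. It was more negative in alg-2 animals for mir-78 (-2.16), mir-2208b-3p (-0.85), mir-790 (-0.92), mir-794 (-0.50), mir-245 (-0.56), mir-48 (-1.22) and mir-241 (-1.53). Of these 15, 6 passed under every alternative that gave a value, namely mir-2220, mir-246, mir-78, mir-48, mir-241 and mir-35. mir-786 passed in 6 of 22 alternatives, mir-2208b-3p in 8 of 21, mir-1820 in 11 of 22, mir-790 in 15 of 22, mir-1018 in 17 of 21, mir-794 in 17 of 22, mir-245 in 20 of 22, and mir-62 and mir-355 in 21 of 22 each.

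Against alg-1 animals the effect was higher in alg-2 animals for mir-62 (1.60), mir-2220 (2.21), mir-1820 (1.19), mir-355 (0.55), mir-2208b-3p (1.61), mir-1018 (1.35), mir-244 (3.47), mir-260 (1.48), mir-1830 (1.96), mir-227 (2.49), mir-79 (1.95) and mir-52 (0.82). It was more negative in alg-2 animals for mir-78 (-3.55), mir-246 (-4.23), mir-357 (-0.74), mir-59 (-1.11), mir-786 (-2.46), mir-794 (-1.19), mir-241 (-1.54), let-7 (-2.09) and mir-35 (-4.53). Of these 21, 16 passed under every alternative that gave a value. With upper quartile scaling the difference was 0.44 for mir-357 and 0.06 for mir-59, the opposite sign to the value above.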

How the results depend on the processing

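In dpf-3;alg-2 against alg-2, 18 miRNAs rose and 8 fell. The count of fallers was 14 with RLE factors, 14 with DESeq2 and 5 with upper quartile factors, and the count of risers was 10 with a minimum mean of 10 CPM, under which 112 miRNAs were tested. Leaving out 1 library gave 13 to 18 risers and 5 to 9 fallers. For the difference from the effect in wild type animals (23 more positive, 16 more negative), upper quartile factors gave 10 and 33, and no composition factor gave 14 more positive. Leaving out 1 library gave 13 to 24 and 5 to 21. For the difference from the effect in alg-1 animals (49 and 43), upper quartile factors gave 96 and 18, and leaving out 1 library gave 48 to 52 and 40 to 49. The cause of these shifts was not tested.

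Libraries with the same replicate number correlated at -0.28, 0.07 and 0.20 in their deviations from the genotype means, and were not treated as paired. With a replicate block over all libraries the counts were 17 and 6 in dpf-3;alg-2 against alg-2, 21 and 11 for the difference from wild type animals, and 50 and 43 for that from alg-1 animals. With a replicate block in a fit of the compared genotypes alone they were 15 and 5, 13 and 8, and 49 and 46.

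Of the 26 called miRNAs, 14 kept their call under every alternative that gave a value (17 alternatives), and none changed sign. The other 12 lost it at least once, 9 of them on leaving out 1 library, and mir-2216 lost it in 12 of 16 alternatives, mir-52 in 11 of 17, and mir-234 and mir-79 in 9 of 17 each. Low counts limit the precision of the called mir-260, mir-1830 and mir-2216.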

Other observations

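All counts of mir-356, a member of the mir-87 family list, stood in one of the deposited numeric columns (the fourth) and none in the third, in 18 of 18 libraries, with 99 to 456 counts per library. They made up 65.2% to 89.8% of the fourth column. What the columns stand for is not stated. The sum of both columns was used, and mir-356 did not pass in dpf-3;alg-2 against alg-2.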
